A study of Mus musculus with 20 samples.

Results

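Claudins and their partner proteins were followed here as 10 tight junction genes of the mouse cochlea, of 24411 genes listed in the expression tables. The members were taken from a fixed list and not by a cut on their measured values, but with earlier results of these data known. They are the claudin genes *Cldn5*, *Cldn9*, *Cldn10*, *Cldn11*, *Cldn12*, *Cldn14* and *Cldn19*, and *Marveld2* (tricellulin), *Ocln* (occludin) and *Tjp1* (ZO-1). RNA-seq was performed on the apical coil of the cochlea, dissected to hold the sensory epithelium and the spiral ganglion, from control *Bai1* tm2b/+ mice and *Bai1* tm2b/tm2b mice at postnatal day 7 (P7) and day 22 (P22). The tm2b allele, made by treating embryos with a cell-permeable Cre enzyme, lacks exons 3 and 4 of *Adgrb1* (the gene for BAI1), carries a lacZ cassette and removes the long isoform in every cell, while the short isoform is left. Control mice thus carry 1 copy of the same allele. Both genotypes have a C57BL/6N background with the ahl allele of *Cdh23*, and mice of both sexes were used. Each library is a pool of tissue from 4 mice, with 3 libraries per genotype at P22 and 7 per genotype at P7, so the tests below measure the spread between pools.

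Tight junctions seal neighbouring epithelial cells at their apical border and separate fluids of different ion content, as between the potassium-rich endolymph and the perilymph of the cochlea. Claudins are membrane proteins whose strands form the seal and set which ions pass, occludin and tricellulin belong to the MARVEL family, with tricellulin placed at cell corners, and ZO-1 is the scaffold that ties the strands to actin. Loss of *Cldn9*, *Cldn11*, *Cldn14* or *Marveld2* causes deafness. *Cldn11* is known from the basal cells of the stria vascularis and from the myelin of oligodendrocytes, *Cldn9* and *Cldn14* from the junctions of hair cells and supporting cells, *Cldn19* from Schwann cells and *Cldn5* from the endothelium.

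In the GENCODE annotation of GRCm38 (mm10), *Cldn11* lies on the plus strand of chromosome 3 from 31149920 to 31164324, and *Cldn14* on the minus strand of chromosome 16 from 93919031 to 94008837. *Ocln* (chr13:100496507-100552718) and *Marveld2* (chr13:100595957-100616971) both lie on the minus strand of chromosome 13. *Cldn9* (chr17:23682584-23684026, minus strand) and *Cldn5* (chr16:18776847-18778262, plus strand) have a single exon. Of the members, only *Cldn19* has exon bases in common with a gene on the opposite strand (2.11% of them), and none overlaps a gene on its own strand.

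The 250 bases before the start site are shown for *Cldn11* and *Cldn14*, since these are the members that passed the test between genotypes at P22 described below. The sequences are RefSeq's (GRCm38.p6), which gave entries for 9 of the 10 members. The *Cldn11* window is chr3:31149670-31149919 on the plus strand, and the *Cldn14* window, for the outermost of its 3 starts, is chr16:94008838-94009087 on the minus strand. Capitals mark CCAAT on either strand and CANNTG (the E-box, the same on both strands), and no marked matches overlap.
Cldn11: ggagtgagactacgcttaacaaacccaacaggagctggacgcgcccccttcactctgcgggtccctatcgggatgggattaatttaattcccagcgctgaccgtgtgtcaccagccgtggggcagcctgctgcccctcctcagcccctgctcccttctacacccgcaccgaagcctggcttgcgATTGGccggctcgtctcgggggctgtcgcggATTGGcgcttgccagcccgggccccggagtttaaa
Cldn14: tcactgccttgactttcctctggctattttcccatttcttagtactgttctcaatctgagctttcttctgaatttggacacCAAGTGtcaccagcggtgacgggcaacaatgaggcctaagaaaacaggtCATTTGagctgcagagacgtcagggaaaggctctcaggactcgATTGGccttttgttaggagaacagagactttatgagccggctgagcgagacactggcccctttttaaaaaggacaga

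The *Cldn11* window holds CCAAT at 2 places, both on the opposite strand, and 19 CpG dinucleotides. The *Cldn14* window holds CCAAT at 1 place and CANNTG at 2 places, with 6 CpG dinucleotides. Over 32851 promoters of the same length, the median was 6 CpG dinucleotides, and CCAAT was found in 33.8% and CANNTG in 66.2%. Neither window holds TATAAA (12.4% of all promoters), GGGCGG (32.7%) or ACAAAG (16.5%). These matches are descriptions of the letters only.

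The P22 libraries and replicates 5 to 7 of each genotype at P7 were deposited as estimated counts, with totals from 35725985 to 40350413 at P22 and from 31108551 to 58807173 at P7. Replicates 1 to 4 at P7 hold rounded TPM (a share of transcripts, adjusted for length), which show no depth. These sets of P7 libraries were compared separately because their units differ. The labels describe a batch of 3 and a batch of 4 replicates per genotype at P7 but do not say which replicates each holds, so the sets may not be those batches. *Adgrb1* was lower in *Bai1* tm2b/tm2b libraries at P22 (90.8 to 95.8 CPM, counts scaled to the library size, against 137 to 151 in controls). At P7 its difference did not pass in the libraries in counts (log2 fold change -0.64, SE 0.23, adjusted p = 0.894, edgeR). In rounded TPM it was level (0.01, SE 0.13, adjusted p = 0.958, limma). The tables sum all its transcripts and do not show the deleted exons. In bulk tissue, fewer cells of a type and less RNA per cell cannot be told apart.

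The order of the members was read per exon length in the control libraries held as counts. *Cldn11* led at both ages, at 144 ± 3.06 CPM per kb at P7 and 146 ± 8.01 at P22 (SD, n = 3). At P7 it was followed by *Cldn9* (107 ± 13.5 CPM per kb), *Cldn19* (50.5 ± 16.3) and *Tjp1* (32.3 ± 4.35), of which the last pair overlapped in range. At P22 *Cldn9* (63.8 ± 6.01), *Cldn5* (62.5 ± 8.49) and *Cldn19* (55.9 ± 4.26) overlapped with their neighbours in the order, so that *Cldn5* stood among the leading members at the older age. At the lower end, *Cldn14* and *Ocln* overlapped at both ages, with *Cldn14* at 6.31 ± 0.55 CPM per kb at P7 and 4.38 ± 0.59 at P22. *Marveld2* was lower, at 4.27 ± 0.49 and 1.73 ± 0.19 CPM per kb, and *Cldn10*, a claudin that forms ion pores, was the lowest, at 0.66 ± 0.10 and 0.72 ± 0.14. The P7 libraries in rounded TPM put *Cldn11* at the top too (300.0 ± 37.0 TPM, n = 4) and *Marveld2* and *Cldn10* at the bottom, with ranges that overlapped. Between these the order differed from that of the P7 libraries in counts. *Cldn19* (193 ± 14.9 TPM) was above *Cldn9* (150 ± 21.6), and *Cldn5* (80.6 ± 4.36) was above *Tjp1* (49.3 ± 4.30), both without overlap. The higher place of *Cldn5* at P22 thus holds against the P7 libraries in counts only.

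**Figure D1:**
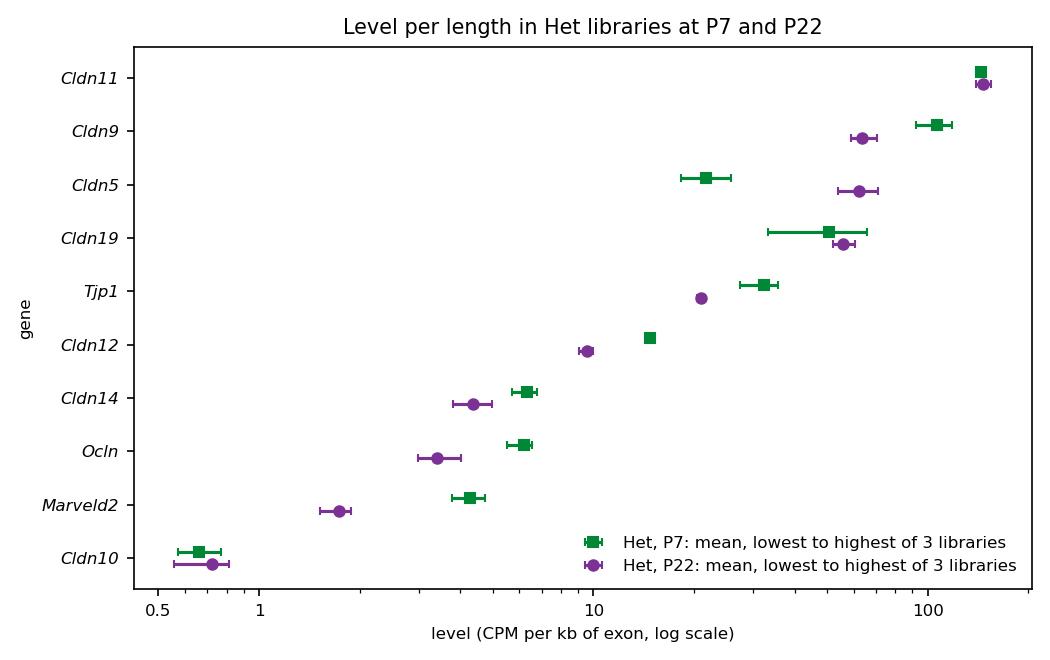
Level of each member in control libraries, in CPM per kb of exon on a log axis, at P7 (squares) and P22 (circles), with bars from the lowest to the highest of 3 libraries. *Cldn11* is at the top at both ages, and *Cldn5* moves from 21.8 CPM per kb at P7 to 62.5 at P22.

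At P22, *Cldn14* and *Cldn11* were higher in *Bai1* tm2b/tm2b than in control cochleae, and no member was called lower. A gene was called if its adjusted p was under 0.05, its SE under 0.5 and the size of its log2 fold change over 0.5. By this rule 2 of 10 members were called higher, where 1.74% of the 15443 genes tested were, and 0 lower, where 1.41% were. The median log2 fold change of the 10 members was 0.15, against 0.01 over all genes. The paper had already reported *Cldn11* and *Cldn14* as upregulated at P22 from these same libraries. Since the members were chosen with earlier results known, their shares and median at P22 are descriptive and give no independent support.

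*Cldn14* read 7.30, 9.53 and 8.40 CPM in control libraries 1 to 3 and 14.02, 14.6 and 14.1 CPM in *Bai1* tm2b/tm2b libraries 1 to 3. All *Bai1* tm2b/tm2b libraries were above all controls and lay close together. The fold was 1.69 (log2 fold change 0.76, SE 0.11, adjusted p = 0.00406, edgeR), resting on 263 to 337 counts per control library and 556 to 608 per *Bai1* tm2b/tm2b library.

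*Cldn11* read 242, 261 and 236 CPM in controls and 392, 423 and 288 CPM in *Bai1* tm2b/tm2b libraries. The genotypes did not overlap, but library 3 of *Bai1* tm2b/tm2b was nearer to the controls than the other two. The fold was 1.49 (log2 fold change 0.58, SE 0.12, adjusted p = 0.0118, edgeR). Without *Bai1* tm2b/tm2b library 2, the highest, the log2 fold change was 0.47 and the call was lost (adjusted p = 0.0506).

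Both calls also depended on the scale. Relative to hair cell markers, whose sum was higher at P22 (below), the median of all genes fell by 0.42 on the log2 scale, and *Cldn14* (0.31, adjusted p = 0.0927) and *Cldn11* (0.15, adjusted p = 0.359) were no longer called, while *Cldn5* and *Cldn19* were called lower. Measured from that median, *Cldn14* stood at 0.74 and *Cldn11* at 0.57. The split of all calls, 269 higher and 218 lower, became 59 and 4994 on this scale, 2033 and 53 relative to neuron markers, and 399 and 134 by total count.

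*Cldn9* and *Cldn10* read higher too in every *Bai1* tm2b/tm2b library but were not called. *Cldn9* read 80.9, 91.5 and 76.7 CPM in controls and 96.3, 94.0 and 118 CPM in *Bai1* tm2b/tm2b libraries (log2 fold change 0.31, SE 0.09, adjusted p = 0.0592, edgeR), a difference that was -0.14 relative to hair cell markers (0.28 from the median of all genes on that scale) and 0.58 relative to neuron markers, where it was called (adjusted p = 0.00720; 0.29 from the median). *Cldn10* read 1.86, 1.30 and 1.91 CPM against 2.14, 3.56 and 2.16 CPM, with a wide error (0.63, SE 0.27, adjusted p = 0.1499, edgeR), and was called relative to neuron markers (0.92, adjusted p = 0.0285). The genotypes did not overlap in 4 of 10 members, each with *Bai1* tm2b/tm2b above control, against 15.8% of all genes in that direction.

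The other 6 members overlapped between genotypes at P22. Their log2 fold changes ran from -0.13 for *Cldn5* to 0.19 for *Marveld2*, and none had an adjusted p below 0.269 (edgeR). The structural partners of the claudins were close to level, with *Tjp1* at 143.5 to 151 CPM in controls and 139 to 183 CPM in *Bai1* tm2b/tm2b libraries, *Ocln* at 11.4 to 15.2 against 12.003 to 14.9 CPM, and *Marveld2* at 4.64 to 5.71 against 5.53 to 6.73 CPM. *Cldn12*, a claudin of broad expression, read 34.5 to 38.1 CPM in controls and 32.9 to 37.3 CPM in *Bai1* tm2b/tm2b libraries.

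**Figure D2:**
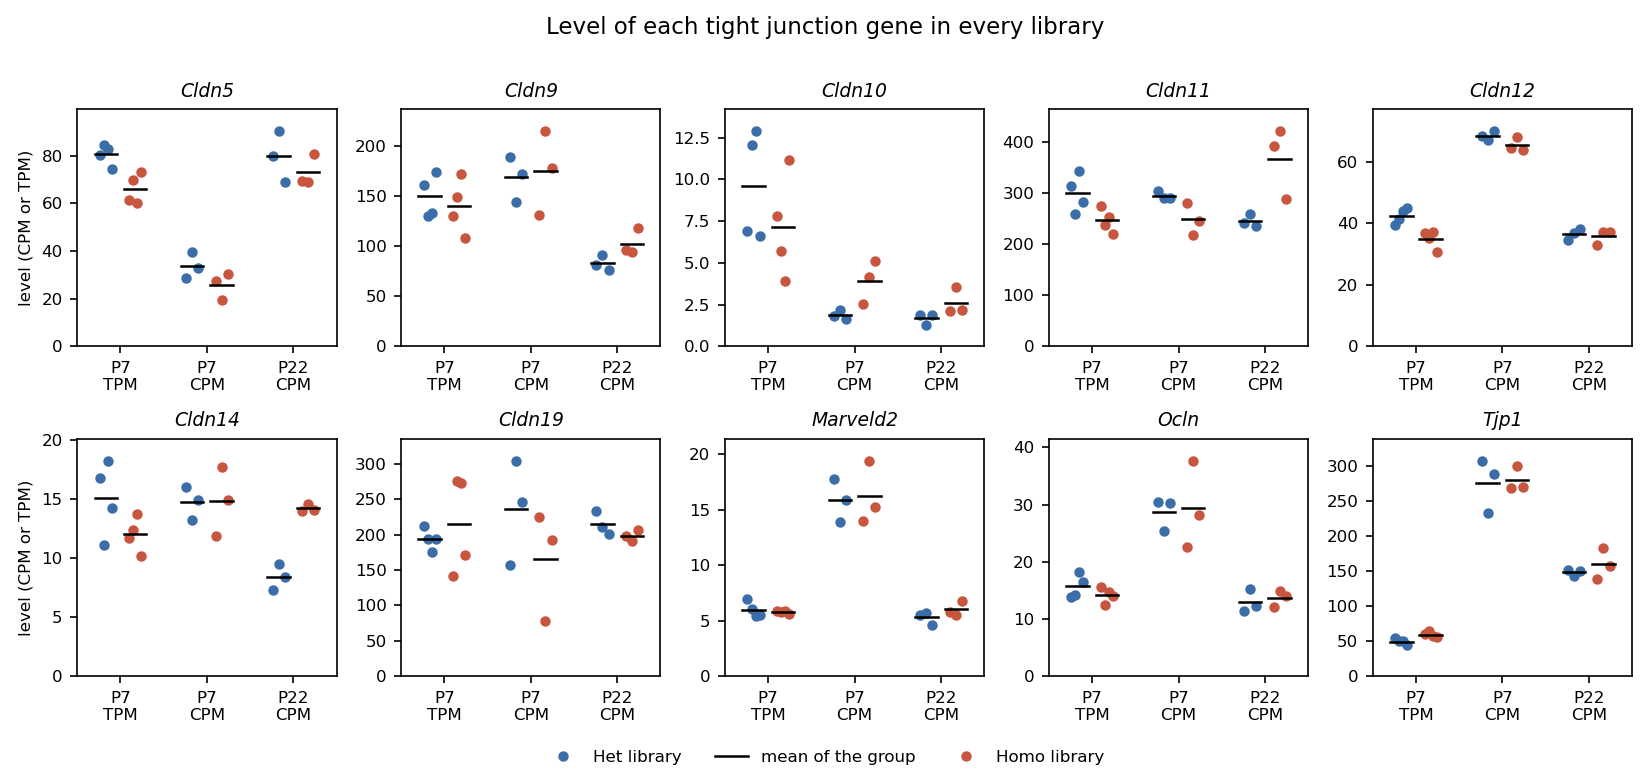
Level of each member in all 20 libraries (points) with the mean of each group (lines), in TPM for P7 replicates 1 to 4 and in CPM, scaled within each set, for the other P7 libraries and P22. At P22 *Cldn14* and *Cldn11* separate by genotype, at 7.30 to 9.53 against 14.02 to 14.6 CPM and at 236 to 261 against 288 to 423 CPM, and TPM and CPM panels are not comparable with each other.

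Markers of other cell types moved with genotype at P22 beside *Cldn11* and *Cldn14*. The summed level of 8 central oligodendrocyte markers was 379, 389 and 409 CPM in control libraries 1 to 3 and 698, 803 and 501 CPM in *Bai1* tm2b/tm2b libraries 1 to 3, with 6 of 8 called higher (among them *Mobp*, 0.92, and *Mog*, 0.67 in log2 fold change). No marker of this list was at 0 in every library, and only *Opalin* was under 1 CPM in every library. Of 12 Schwann cell and peripheral myelin markers, 1 was called higher (*Mbp*), with sums of 19463 to 20574 CPM in controls and 22623, 23958 and 20545 CPM in *Bai1* tm2b/tm2b libraries 1 to 3, which overlapped. The *Bai1* tm2b/tm2b libraries fell in the same order for *Cldn11* and for the oligodendrocyte, Schwann cell and bone lists, highest in library 2 and lowest in library 3. Of 7 markers of stria basal cells and fibrocytes, 1 was called higher (*Slc4a11*), and the sums overlapped (6814 to 7732 against 7336 to 8933 CPM).

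Hair cell markers summed to 500.2 to 528 CPM in controls and 629.7 to 739 CPM in *Bai1* tm2b/tm2b libraries, with 3 of 15 called higher. Supporting cell markers summed to 1443 to 1598 against 1733 to 1941 CPM, with 4 of 14 called higher and *Prox1* called lower. Spiral ganglion neuron markers summed to 14648 to 16694 against 10944 to 12383 CPM, with 2 of 13 called lower. Markers of marginal cells of the stria vascularis summed to 187 to 331 against 170 to 174 CPM, with 1 of 6 called lower, and the 331 CPM was control library 2 (187 and 193 CPM in the other controls). Each of these sums, and that of the oligodendrocyte list, separated the genotypes (exact 2-sided permutation p = 0.1, the smallest that 3 against 3 libraries allow). None of the markers in these 4 lists was under 1 CPM in every library. The same control library stood apart in pigment cell and intermediate cell markers of the stria (289 CPM, against 22.8 to 28.2 in the other libraries), and without it *Cldn11* and *Cldn14* were still called. The part of these cell types in the changes of *Cldn11*, *Cldn14* and *Cldn9* was not tested.

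**Figure D3:**
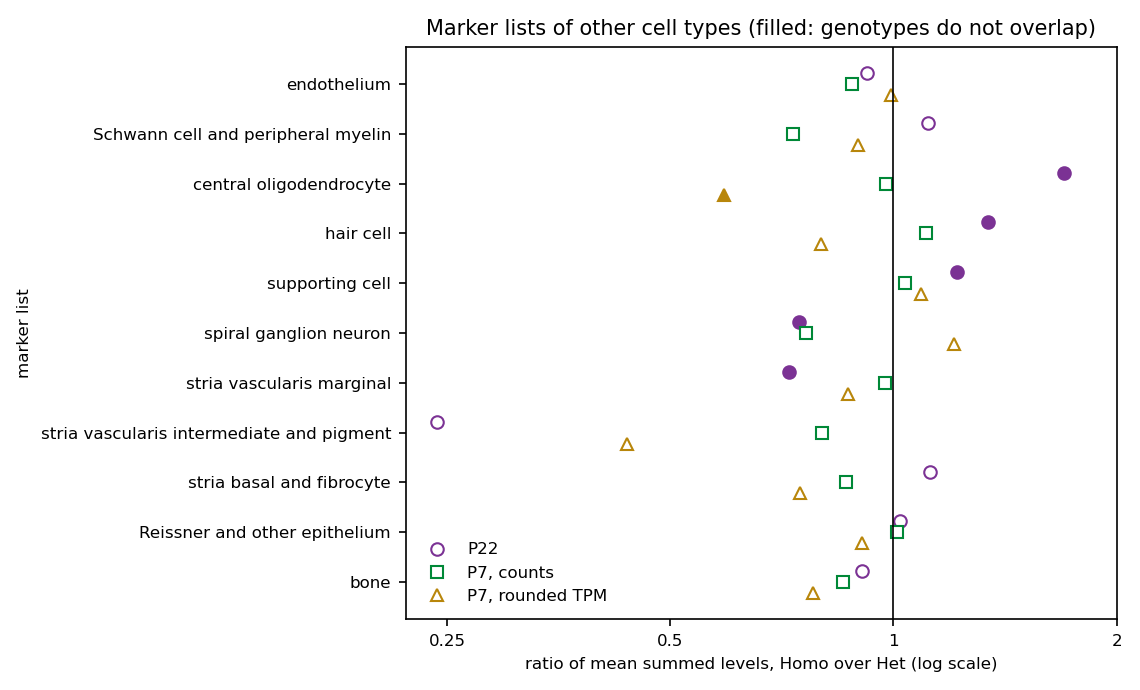
Ratio of the mean summed level of each marker list, *Bai1* tm2b/tm2b (Homo) over control (Het), on a log axis, for the P22 libraries, the P7 libraries in counts and the P7 libraries in rounded TPM; filled symbols mark lists whose genotypes did not overlap. At P22 the central oligodendrocyte list stands at 1.70 and the hair cell list at 1.34, and the neuron list at 0.75.

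At P7, neither set of libraries gave a call for any member. In the libraries held as counts, 0 of 16026 genes were called (percent called 0; 763, or 4.76%, had an unadjusted p under 0.05 in edgeR, 2 members among them, and DESeq2 called 48 genes, with no member). *Cldn11* read 306, 291 and 291 CPM in control libraries 5 to 7 and 282, 219 and 247 CPM in *Bai1* tm2b/tm2b libraries 5 to 7. All *Bai1* tm2b/tm2b values were thus below the controls, in the direction opposite to P22 (log2 fold change -0.25, SE 0.10, adjusted p = 0.894, edgeR). *Cldn14* read 16.0, 13.3 and 15.0 CPM against 11.9, 17.8 and 14.9 CPM. These ranges overlapped fully (0.01, SE 0.16, adjusted p = 0.995, edgeR).

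*Cldn10* had the largest difference of the members in these libraries, at 1.85, 2.17 and 1.62 CPM in controls and 2.57, 4.17 and 5.10 CPM in *Bai1* tm2b/tm2b libraries. The genotypes did not overlap, but the level was low, at 68 to 125 counts in controls and 95 to 229 in *Bai1* tm2b/tm2b (log2 fold change 1.07, SE 0.28, adjusted p = 0.894, edgeR). *Cldn10* and *Cldn11* were the members whose genotypes did not overlap here, 2 of 10 against 10.4% of all genes in either direction.

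*Cldn19* varied widely between libraries of a genotype at P7. It read 156, 305 and 246 CPM in control libraries 5 to 7 and 225, 77.2 and 193 CPM in *Bai1* tm2b/tm2b libraries 5 to 7. The Schwann cell and peripheral myelin sum of the same libraries was 10637, 17714 and 14423 CPM and 12874, 6065 and 12366 CPM, so that the library lowest in *Cldn19*, *Bai1* tm2b/tm2b library 6, was also the lowest in myelin markers. That library was the lowest of the 6 in central oligodendrocyte, endothelium, stria basal and fibrocyte, and bone markers as well, and the highest in hair cell (1324 CPM) and supporting cell markers (14483 CPM), and the part of these cell types in the spread of *Cldn19* was not tested. Its log2 fold change of -0.51 (SE 0.40, adjusted p = 0.894, edgeR) was -0.18 without that library. In the rounded TPM libraries, *Cldn19* read 141, 276, 272 and 171 TPM in *Bai1* tm2b/tm2b libraries 1 to 4, where the myelin sum was 11501, 21998, 23189 and 13166 TPM. Here too, libraries 1 and 4 were low in both. They were also the lowest in the hair cell, supporting cell, central oligodendrocyte, stria basal and fibrocyte, epithelium and bone lists. The neuron, endothelium, marginal cell and pigment cell lists did not share this order. In controls of this set, *Cldn19* was lowest in library 3 (175 TPM) and the myelin sum in library 4 (18717 TPM). The part of these cell types was not tested here either. At P22 *Cldn19* spread little, from 191 to 233 CPM over all 6 libraries.

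In the P7 libraries in rounded TPM, 0 of 10 members were called, where 0.767% of 11740 genes were (70 higher and 20 lower; without TMM scaling 284 and 9, and relative to neuron markers 6 and 284). *Cldn5* and *Cldn12* passed an adjusted p of 0.05 in limma, as 8.32% of genes did, but not the limit on size. *Cldn5* read 80.2, 84.7, 82.8 and 74.6 TPM in controls 1 to 4 and 61.3, 69.7, 59.9999 and 73.3 TPM in *Bai1* tm2b/tm2b libraries, all of these below all controls (log2 fold change -0.29, SE 0.08, adjusted p = 0.0479). *Cldn12* read 39.6, 41.3, 44.1 and 45.0 TPM against 37.0, 35.3, 37.4 and 30.6 TPM, again without overlap (-0.27, SE 0.07, adjusted p = 0.04997). *Tjp1* was the member with the opposite order, at 43.9 to 54.4 TPM in controls and 55.7 to 64.0 TPM in *Bai1* tm2b/tm2b (0.26, SE 0.07, adjusted p = 0.0536, limma). These 3 were the members that did not overlap, where 18.6% of all genes did not.

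*Cldn11* read 259 to 344 TPM in controls and 221 to 275 TPM in *Bai1* tm2b/tm2b libraries, with overlap (log2 fold change -0.28, SE 0.10, adjusted p = 0.0842, limma). Control library 3, the highest, also stood apart in stria markers, at 8321 TPM for basal cells and fibrocytes (3754 to 6012 in the other controls, 2911 to 5333 in *Bai1* tm2b/tm2b), 310 TPM for pigment cells (32.7 to 114 in the other controls) and 161 TPM for marginal cells (78.6 to 108). Without it the log2 fold change of *Cldn11* was -0.21 (adjusted p = 0.209, limma). The central oligodendrocyte sum was lower in *Bai1* tm2b/tm2b in this set, at 165 to 239 TPM in controls and 90.0 to 147 TPM (exact 2-sided permutation p = 0.0286, the smallest that 4 against 4 allow), with *Klk6* at 0 in every library. In the P7 libraries in counts this sum overlapped (204 to 244 against 137 to 271 CPM). The part of these cell types in the P7 values of *Cldn11* was not tested. The endothelium sum, beside *Cldn5*, overlapped in both sets (389 to 442 against 390.5 to 428 TPM, and 470 to 518 against 391 to 493.5 CPM).

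With both P7 sets joined and the set as a term, 0 of 11441 genes were called (limma; 2685, or 23.5%, had an unadjusted p under 0.05, 4 members among them). *Cldn5* was lower by 0.33 on the log2 scale (SE 0.09), *Cldn11* by 0.27 (SE 0.07) and *Cldn12* by 0.19 (SE 0.05), with adjusted p values of 0.127 to 0.128 (limma). *Cldn10* was too low for this fit.

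**Figure D4:**
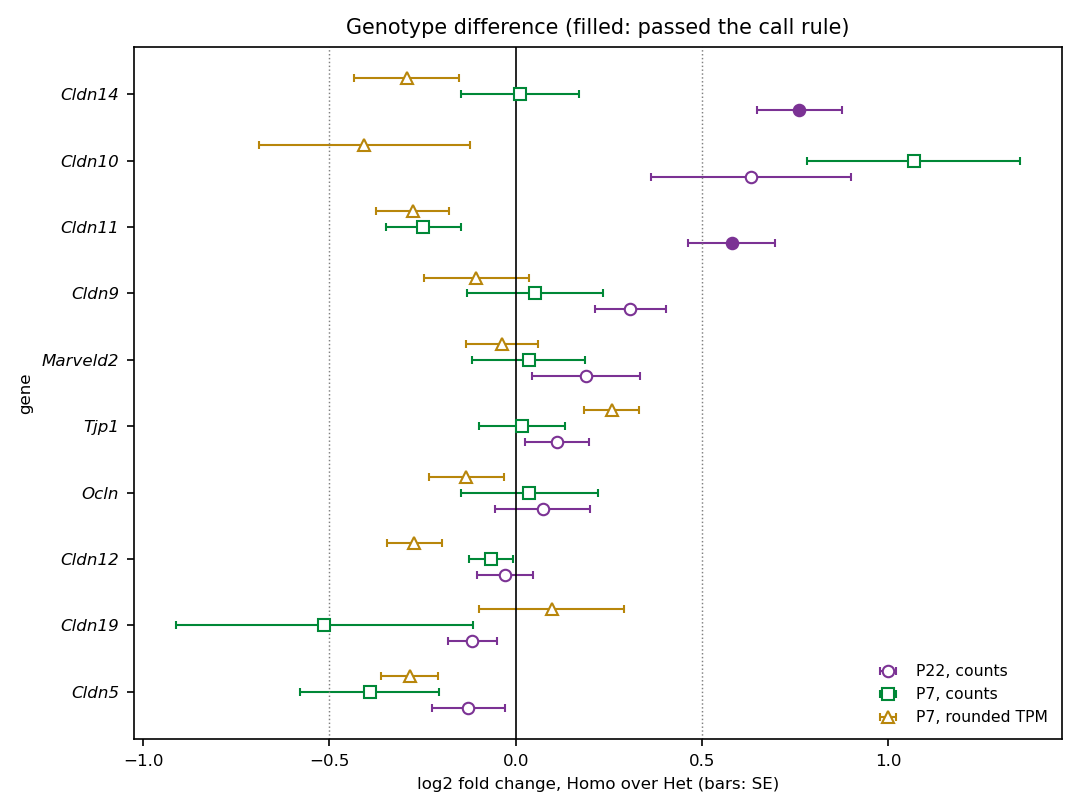
Log2 fold change, *Bai1* tm2b/tm2b (Homo) over control (Het), with its standard error, for the 10 members at P22 and in both sets of P7 libraries; filled symbols passed the call rule and dotted lines mark its limit on size. *Cldn14* (0.76) and *Cldn11* (0.58) are filled at P22, and no P7 symbol is filled.

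From P7 to P22, in the libraries in counts, *Cldn5* rose and the MARVEL genes, *Tjp1* and *Cldn12* fell in both genotypes. In control mice, 1 member rose and 6 fell, where 24.8% of 16314 genes were called higher and 27% lower. The median of the members was -0.57 in log2 fold change, against -0.06 over all genes. In *Bai1* tm2b/tm2b mice, 2 members rose and 4 fell, where 24.2% of genes were called higher and 25.1% lower, with a median of -0.39 against -0.04. Each age is a separate set of libraries, so age and the set of libraries cannot be told apart, and the comparisons of the 2 genotypes share no library. By total count the median of all genes fell by 0.35 in controls, and the split of calls went from 4041 higher and 4404 lower to 2749 and 6141.

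*Cldn5*, the claudin of the blood-tissue barrier, rose in both genotypes against the P7 libraries in counts. The P7 libraries in rounded TPM did not enter this test. In their controls *Cldn5* stood at 80.6 TPM beside 150 for *Cldn9*. Control libraries in counts had 21.8 beside 107 CPM per kb at P7, and 62.5 beside 63.8 at P22. The place of *Cldn5* relative to *Cldn9* thus differed between the P7 sets too. On a scale common to the 12 libraries in counts, it read 25.9, 36.5 and 30.2 CPM in controls at P7 and 88.4, 100.5 and 76.5 CPM at P22. Every P22 library was above every P7 library (log2 fold change 1.52, SE 0.16, adjusted p = 3.1e-06, edgeR). In *Bai1* tm2b/tm2b mice it read 23.9, 17.6 and 27.7 CPM at P7 and 76.8, 76.1 and 88.6 CPM at P22 (1.80, SE 0.17, adjusted p = 8.58e-07). Endothelial markers did not move as a body: 6 of 12 were called higher and 3 lower in controls, and 6 higher and 1 lower in *Bai1* tm2b/tm2b, with medians of 0.23 and 0.38. For all genes these shares were 24.8% higher and 27% lower in controls, and 24.2% and 25.1% in *Bai1* tm2b/tm2b.

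RNA of the MARVEL genes *Marveld2* and *Ocln* and of *Tjp1* fell in both genotypes. *Marveld2* went from 16.0, 12.7 and 14.5 CPM at P7 to 6.08, 6.35 and 5.13 CPM at P22 in controls, without overlap (log2 fold change -1.30, SE 0.15, adjusted p = 6.6e-06, edgeR). In *Bai1* tm2b/tm2b its log2 fold change was -1.13 (SE 0.15). *Ocln*, its neighbour on chromosome 13, changed by -0.86 (SE 0.18) in controls and -0.82 (SE 0.18) in *Bai1* tm2b/tm2b. *Tjp1* changed by -0.62 (SE 0.11) and -0.51 (SE 0.11), the latter close to the limit on size. That call was lost without *Bai1* tm2b/tm2b library 1 or 3 at P22 or library 6 at P7 (-0.50 to -0.42) and with the length trend removed (-0.38). *Cldn12* changed by -0.63 and -0.57 (SE 0.07 each).

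*Cldn9* read 171, 133 and 158 CPM at P7 and 89.5, 102 and 84.9 CPM at P22 in controls, and was called lower (log2 fold change -0.74, SE 0.17, adjusted p = 0.00146, edgeR). In *Bai1* tm2b/tm2b it read 115, 195 and 163 CPM at P7 and 106, 104 and 129.6 CPM at P22, with overlap, and was below the limit on size (-0.48, SE 0.17, adjusted p = 0.0210). It was called lower there by total count (-0.75), with the length trend removed (-0.64), and without *Bai1* tm2b/tm2b library 3 at P22 (-0.58) or library 5 at P7 (-0.66). Of the markers of supporting cells, in which *Cldn9* is known to be expressed, 11 of 14 were called lower in each genotype, as were 10 of 15 hair cell markers. The share of all genes called lower was 27% in controls and 25.1% in *Bai1* tm2b/tm2b. The part of these cell types in the falls of *Cldn9*, *Marveld2* and *Ocln* was not tested.

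*Cldn14* and *Cldn11* were the members whose change with age differed most between genotypes. *Cldn14* read 14.5, 12.2 and 13.7 CPM at P7 and 8.07, 10.6 and 9.30 CPM at P22 in controls, a fall near the limit on size (log2 fold change -0.53, SE 0.15, adjusted p = 0.00693, edgeR). The call was lost with DESeq2, with RLE scaling and with control libraries alone (-0.49 each), and without control library 1 at P22 (-0.43) or control library 5 at P7 (-0.47). In *Bai1* tm2b/tm2b it read 10.4, 16.1 and 13.6 CPM at P7 and 15.5, 16.1 and 15.5 CPM at P22 and was not called (0.24, SE 0.15). *Cldn11* read 276, 267 and 266 CPM at P7 and 268, 289.5 and 261 CPM at P22 in controls (0.02, SE 0.13), and 246, 199 and 225 CPM at P7 and 433, 466 and 317 CPM at P22 in *Bai1* tm2b/tm2b, where it was called higher (0.86, SE 0.13, adjusted p = 5.07e-05, edgeR).

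The difference between these changes was tested in the same fit. It was 0.85 for *Cldn11* (SE 0.18, unadjusted p = 0.000439, adjusted p = 0.151, edgeR) and 0.76 for *Cldn14* (SE 0.21, unadjusted p = 0.00342, adjusted p = 0.271). Neither passed over all genes, where 0.0306% were called, and *Cldn11* was called with DESeq2 (adjusted p = 0.00260) and without *Bai1* tm2b/tm2b library 5 at P7 (adjusted p = 0.0479, edgeR). The other 8 members had differences from -0.42 for *Cldn10* to 0.42 for *Cldn19*, with adjusted p values of at least 0.704 (edgeR). The central oligodendrocyte markers rose with age in both genotypes, 7 of 8 in each, with a median log2 fold change of 1.53 in controls and 2.30 in *Bai1* tm2b/tm2b. Among all genes, 24.8% were called higher with age in controls and 24.2% in *Bai1* tm2b/tm2b. Of 7 markers of stria basal cells and fibrocytes, 4 were called higher and 3 lower in controls. *Cldn11* in controls had a log2 fold change of 0.02, and the part of these cell types in it was not tested.

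*Cldn10* and *Cldn19* were called in neither genotype across age, except that *Cldn19* was called higher in *Bai1* tm2b/tm2b without library 5 at P7 (0.83, adjusted p = 0.0394, edgeR). *Cldn10* stayed between 1.45 and 4.65 CPM over all 12 libraries, and *Cldn19* between 70.1 and 279.7 CPM, with SE values of 0.29 to 0.31 for both genes.

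**Figure D5:**
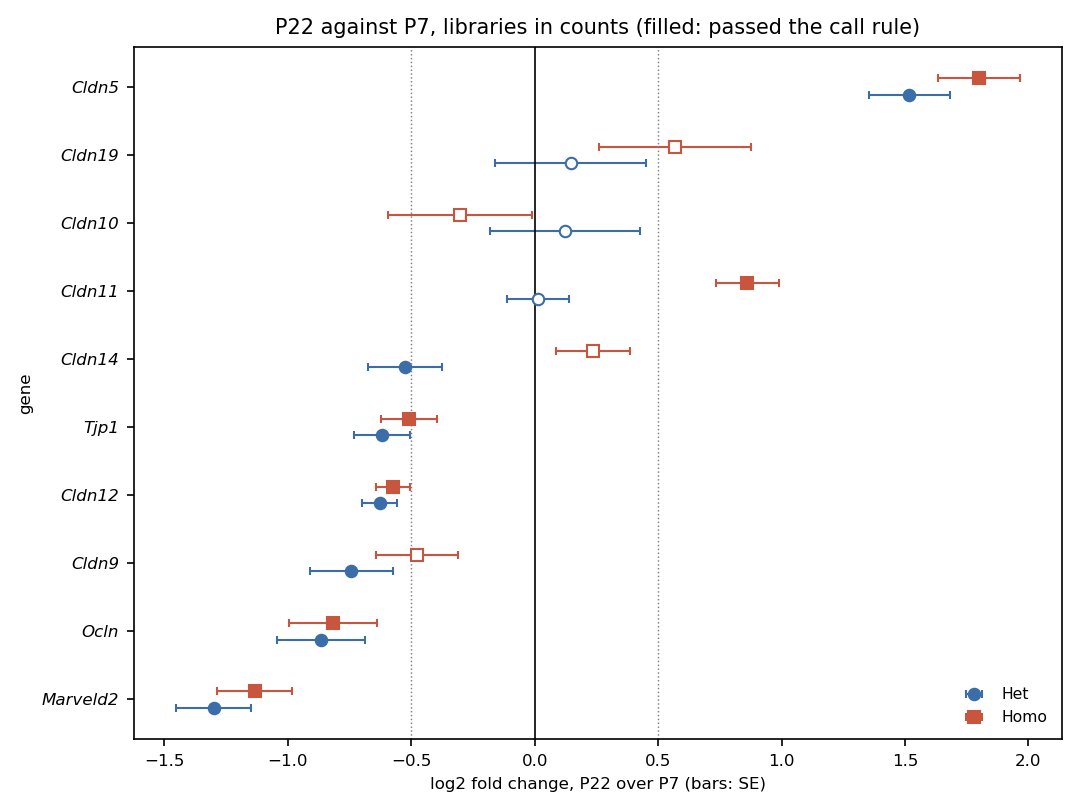
Log2 fold change from P7 to P22, with its standard error, of the 10 members in control (Het) and *Bai1* tm2b/tm2b (Homo) libraries in counts; filled symbols passed the call rule. *Cldn5* is far to the right in both genotypes (1.52 and 1.80), *Marveld2* far to the left (-1.30 and -1.13), and *Cldn11* is called in *Bai1* tm2b/tm2b only, where the test of that difference did not pass.

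Beyond the members, 64 other tight junction genes were listed in the tables and 48 were tested at P22. None was called between genotypes (median log2 fold change 0.06). Without the limit on size, 5 had an adjusted p under 0.05 and were higher and 3 were lower (edgeR), a group named here after its values were seen: the plaque proteins *Cgn* (cingulin, 0.44), *Tjp3* (ZO-3, 0.43) and *Magi1* (0.24), the adhesion molecule *Cxadr* (0.32) and the tricellular protein *Lsr* (0.29) were higher, and *Clmp* (-0.43), *Pard6a* (-0.29) and *Amot* (-0.29) were lower. That is 8 of 48, where 12.3% of all genes passed this mark. Among 10 other claudin genes tested, the log2 fold changes ran from -0.07 to 0.91 with a median of 0.33 and no adjusted p under 0.05. At P7, 0 of 49 and 0 of 45 were called in the libraries in counts and in rounded TPM.

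With age, 27 of 51 other tight junction genes tested fell and 7 rose in controls, and 23 fell and 7 rose in *Bai1* tm2b/tm2b. Of all genes tested, 27% were called lower and 24.8% higher in controls, and 25.1% and 24.2% in *Bai1* tm2b/tm2b. Of the 13 claudin genes among them, 9 fell in each genotype and none was called higher. The largest falls were of *Cldn6*, a claudin of embryonic epithelia (26.2 to 32.4 CPM at P7 and 0.69 to 1.36 CPM at P22, on the scale of each set; log2 fold change -4.66, SE 0.28), and *Cldn1*, a claudin of epidermis and other epithelia (-2.94, SE 0.22). *Tmem178* (-2.53), *Cldn23* (-2.17), *Cldn4* (-1.96), *Cldn22* (-1.90) and *Cldn7* (-1.75) followed. *Tmem178* is not named as a claudin. It was listed with them as a related membrane protein and enters the counts of other tight junction genes. *Cxadr* (-1.90), *Cgnl1* (paracingulin, -1.70), *Pard3b* (-1.65) and *Marveld3* (-1.56), the third MARVEL protein, also fell. The polarity kinase *Prkcz* was the exception among the 12 largest changes, and rose by 1.55 (SE 0.10). In the other tricellular and MARVEL genes 4 of 5 fell in controls, and in the junctional adhesion molecules 2 rose and 2 fell of 6.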

How the data were processed

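The authors prepared poly A libraries from pools of 4 mice, sequenced them as paired ends and, per the labels and the study's methods, mapped and counted reads with the nf-core RNA pipeline (mm10, STAR, Salmon). The pipeline version, the annotation and the use of strand in counting were not given in the sources used here. The deposited values are estimated counts per gene without normalization (expected counts) for P22 and for P7 replicates 5 to 7, and for P7 replicates 1 to 4 a score read here as whole-number TPM, from the values in the deposited table. No column of values was left unused.

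In R 4.3.3, estimated counts were rounded, filtered with filterByExpr, scaled by TMM and tested in edgeR 4.0.16 by quasi-likelihood. Rounded TPM values with a mean of at least 5 were tested on log2(value + 1) after TMM scaling with limma 3.58.1. Both P7 sets were joined in limma with the set as a term. All p values were adjusted by Benjamini-Hochberg over all genes tested. The rule for a call was an adjusted p under 0.05, a size of the log2 fold change over 0.5 and an SE under 0.5. Sums of marker lists were compared by exact 2-sided permutation tests. DESeq2 1.42.0, other filters, scalings, thresholds, pseudocounts, removal of a trend on transcript length, scaling to neuron or hair cell markers, the replicate block and each library left out were alternatives.

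All members were named in each comparison. Other tight junction genes were named if called at P22, then by size among those called with age in controls, up to 12, and the 8 genes with an adjusted p under 0.05 at P22 were named after their values were seen. The members, the lists and the alternatives were chosen with earlier results of these data known. The test of genotype by P7 set was added after the values were seen. The fits were tested on simulated data. Total counts limit the precision of low genes such as *Cldn10*. Gene lengths and positions are from GENCODE for GRCm38. Protein sequences were not used here.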

Additional observations from a re-analysis of the deposited data

Results flagged for a closer look

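The genotype difference of *Cldn11* was larger at P22 than in the P7 libraries in counts by 0.85 on the log2 scale, and that of *Cldn14* by 0.76. Both came up because the test of the difference itself gave an unadjusted p under 0.05 (edgeR), and neither passed over all genes (adjusted p = 0.151 and 0.271). All *Bai1* tm2b/tm2b libraries were above controls at P22 for both genes, and all were below controls for *Cldn11* in the P7 libraries in counts.

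The genotype difference of *Cldn10* differed between the sets of P7 libraries, by -1.15 on the log2 scale (rounded TPM minus counts, SE 0.41, unadjusted p = 0.0141, adjusted p = 0.243, limma), in a test added after the values were seen. It was higher in 3 of 3 *Bai1* tm2b/tm2b libraries in counts, while the rounded TPM libraries overlapped. No gene of 14247 passed an adjusted p of 0.05 in this test, and 2308 had an unadjusted p under 0.05 (limma). Each member was examined in each genotype of the P7 libraries in rounded TPM, which gave 20 groups of 4 libraries. No single library stood apart in these groups (Dixon's test). Groups of 3 libraries and the marker sums were not examined in this way.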

How the results depend on the processing

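Across 1326 values of members under the alternatives, 1298 kept their direction and their side of the threshold or were called in neither, 13 lost a call, 15 gained one and no called value changed sign; 59 uncalled values did. At P22, 2 of 10 members and 487 genes were called. With an adjusted p under 0.01 these were 1 and 227, relative to neuron markers 4 and 2086, relative to hair cell markers 2 and 5053, and with no limit on size 2 and 1904. The 2 members called relative to hair cell markers were *Cldn5* and *Cldn19*, both lower, and not *Cldn11* and *Cldn14*. Leaving out a library gave 1 to 2 members and 270 to 588 genes, and *Bai1* tm2b/tm2b library 2 was the one that cost *Cldn11* its call. For the P7 libraries in counts, where 0 genes were called, DESeq2 called 48, neuron marker scaling 12 and hair cell marker scaling 67, with no member. For the P7 libraries in rounded TPM, 90 genes were called. With no limit on size there were 2 members and 977 genes, relative to neuron markers 1 and 290, without TMM scaling 293 genes and with a pseudocount of 5, 44. No gene was called with an adjusted p under 0.01, with a mean of at least 1, with no filter, with the length trend removed, relative to hair cell markers or with the replicate block, and leaving out a library gave 0 to 335 genes and no member. The joined P7 fit gave 0 to 1 genes with a library left out. With age, controls kept 6 to 7 members called and *Bai1* tm2b/tm2b mice 5 to 8. For age by genotype, 5 genes and no member were called. This became 0 genes with an adjusted p under 0.01, 8 with no filter, 119 with DESeq2 (1 member, *Cldn11*) and 2 with the replicate block, and 0 to 101 genes and 0 to 1 members with a library left out. The causes of these changes were not tested. Libraries of the same number did not deviate together (correlations of 0.0604, -0.0019 and 0.0514 at P22, and under 0.1 in both P7 sets), so the numbers were not taken as pairs, and with the replicate block 466 genes and the same 2 members, *Cldn11* and *Cldn14*, were called at P22. *Cldn10*, at 46 to 229 counts per library, is limited most by depth.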
